A study of Mus musculus with 7 samples.

Results

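The MHC class II presentation genes described here are 8 of the 19589 genes in the table, taken by symbol: H2-Aa, H2-Ab1, H2-Eb1, H2-DMa, H2-DMb1, H2-DMb2, Cd74 and Ciita. The set follows a known pathway and no threshold on a value, but it was chosen with earlier results of these data known. All 8 were in the table, and all 8 passed each filter on low values, 4 of them (H2-DMa, H2-DMb1, H2-DMb2 and Ciita) reaching the read minimum of the shallow libraries only with the reads of WT3 and WT4. RNA was sequenced from CD4+ cells sorted by flow cytometry from the spleens of C57BL/6 mice, with 4 wild-type libraries (WT1 to WT4) and 3 libraries of mice that lack Tet2 and carry G17V RHOA (RT1 to RT3). TET2 is an enzyme that starts the removal of DNA methylation, and RHOA is a small GTPase. The labels name no allele, agent or treatment that the wild-type mice share with the RT mice. The labels do not say how Tet2 was deleted, which promoter drives G17V RHOA or how old the mice were. The comparison asks whether expression of the class II genes depends on genotype in these cells.

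MHC class II molecules are surface pairs of an alpha and a beta chain that show peptides from endosomes to CD4+ T cells. The invariant chain Cd74 fills the peptide groove of new pairs, and the H2-DM heterodimer later swaps the remaining fragment for other peptides. Ciita is the coactivator that switches these genes on together through factors bound at shared promoter boxes. In the mouse spleen the genes are known for high expression in B cells, dendritic cells and macrophages, and mouse T cells are known to express little of them.

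Values are RPKM, reads per kilobase of gene scaled to the size of the library. The libraries fell into a deep set (WT1, WT2 and RT1), with 18566233 to 21800352 reads behind the values, and a shallow set (WT3, WT4, RT2 and RT3), with 105763 to 121659. These totals and the reads per gene were worked out from the steps between the values. Genes accounted for 47.6% to 51.7% of the total in the deep set and for 88.0% to 91.0% in the shallow set, so an RPKM value in a shallow library stood higher for the same share of gene reads. Values scaled to 1000000 recovered reads (RPM) are free of that difference and are given beside RPKM for the 8 genes. The sorted cell type was checked against its markers: Cd4 lay between 122 and 463 RPKM in the 7 libraries and Cd3e between 66.5 and 185 RPKM, while Cd8a reached 4.52 RPKM and Cd8b1 7.30 RPKM at most. WT3 and WT4 stood apart from the other libraries in class II genes and in markers of B cells, plasma cells, dendritic cells and red cells, and the fits of the 8 genes over all 7 libraries are also given without them. A fit of the shallow set cannot be had without them. The series' design text counts 4 wild-type mice, but the labels do not say whether WT3 and WT4 came from separate RNA preparations, and every test takes them as 2 samples. P-values measure the spread between these samples only.

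Cd74, the invariant chain (chr18:60803848-60812652, plus strand, mm10), had the highest RPKM of the 8 genes in all 7 libraries. It stood at 249 RPKM in WT1, 164 in WT2, 2701 in WT3 and 2805 in WT4, and at 385 RPKM in RT1, 657 in RT2 and 839 in RT3. WT3 and WT4 lay above every RT library, and WT1 and WT2 lay below every one, so the wild-type values enclosed the RT values. The mean was 1480 ± 1471 RPKM (SD, n = 4) in wild type and 627 ± 228 RPKM (SD, n = 3) in RT. In RPM the wild-type values again enclosed the RT values, with 738 and 447 RPM in WT1 and WT2 and 4329 and 4481 RPM in WT3 and WT4. RT1 to RT3 had 1079, 1021 and 1301 RPM, so RT1 lay above RT2 on this scale.

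The 3 chain genes showed the same split among the wild-type libraries. H2-Aa, the alpha chain of the I-A molecule (chr17:34282744-34287823, minus strand), had 46.8, 29.3, 987 and 803 RPKM in WT1 to WT4 against 70.9, 90.8 and 154 RPKM in RT1 to RT3. H2-Ab1, the I-A beta chain (chr17:34257689-34269419, plus strand), had 45.7, 25.3, 940 and 869 RPKM in WT1 to WT4 against 61.5, 69.3 and 85.4 RPKM in RT1 to RT3. In both genes WT3 and WT4 were the highest libraries, the 3 RT libraries came next, and WT1 and WT2 were the lowest. For H2-Aa this order also held in RPM, at 184, 106, 2102 and 1705 RPM in WT1 to WT4 and 264, 188 and 316 RPM in RT1 to RT3. H2-Eb1, the beta chain of the I-E molecule (chr17:34305867-34316674, plus strand), had 93.2, 64.2, 1335 and 1326 RPKM in WT1 to WT4 against 121, 152 and 97.2 RPKM in RT1 to RT3. C57BL/6 mice are known to lack I-E on the cell surface because the alpha chain partner is not made. The lower of WT3 and WT4 exceeded the highest of the other 5 libraries in RPKM 5.23-fold for H2-Aa, 10.2-fold for H2-Ab1 and 8.74-fold for H2-Eb1. Wild-type means were 467 ± 500, 470 ± 503 and 705 ± 723 RPKM (SD, n = 4) in that order, and RT means were 105 ± 43.1, 72.0 ± 12.2 and 123 ± 27.4 RPKM (SD, n = 3). The place of WT1 among the RT libraries depended on the scale: in RPM, WT1 stood at 157 for H2-Ab1, above RT2 at 125 and RT3 at 154, and at 232 for H2-Eb1, above RT2 at 198 and RT3 at 126. WT3 and WT4 remained the highest, at 1749 and 1612 RPM for H2-Ab1 and 1797 and 1779 RPM for H2-Eb1.

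Because all 8 genes were highest in the same 2 libraries, the promoter boxes they are known for are shown. Sequences are from the RefSeq promoter table (GRCm38.p6, the mm10 build), 250 bases before to 50 after each start, in which 5 of the 8 genes matched (H2-Aa, H2-Eb1, H2-DMa, H2-DMb1 and H2-DMb2) and H2-Ab1, Cd74 and Ciita did not. Each line gives 80 bases, 5′ to 3′ in the direction of the gene. Capitals mark TGATTGG, the Y box with its inverted CCAAT, and, where it lies 15 to 35 bases before on the same strand, GCAAC, the core of the X box. The 2 chain promoters hold both boxes:
H2-Aa, chr17:34287847-34287926, minus strand: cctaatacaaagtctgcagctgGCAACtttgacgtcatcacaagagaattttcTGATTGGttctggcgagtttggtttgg
H2-Eb1, chr17:34305753-34305832, plus strand: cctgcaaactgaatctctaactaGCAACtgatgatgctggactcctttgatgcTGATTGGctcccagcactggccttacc
The bases between the 2 boxes number 26 in H2-Aa and 25 in H2-Eb1, and the Y box ends 43 and 54 bases before the start. Among all 32851 promoters of the same length, TGATTGG occurs on either strand in 2568 (7.82%), the spaced pair in 67 (0.204%) and the shorter ATTGG, which lies inside TGATTGG, in 37.4%. A match is a description of these letters and not a bound site.

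The H2-DM genes encode the peptide editor. H2-DMa, its alpha chain (chr17:34119541-34139101, plus strand), had 14.2, 13.3, 92.2 and 115 RPKM in WT1 to WT4 against 15.3, 11.5 and 5.01 RPKM in RT1 to RT3. H2-DMb2, 1 of its 2 beta chain genes (chr17:34143307-34151555, plus strand), had 9.86, 4.79, 172 and 149 RPKM in WT1 to WT4 against 8.37, 11.1 and 4.81 RPKM in RT1 to RT3. H2-DMb1, the other beta chain gene (chr17:34153072-34160230, plus strand), had 3.77, 5.11, 34.0 and 33.2 RPKM in WT1 to WT4 against 14.1, 0 and 5.54 RPKM in RT1 to RT3. WT3 and WT4 were the highest libraries for all 3 genes, and the other 5 libraries overlapped between the genotypes. In RPM, H2-DMa had 172 and 214 in WT3 and WT4, 49.0 and 42.3 in WT1 and WT2, 50 in RT1, and 20.8 and 9.03 in RT2 and RT3. H2-DMb2 had 334 and 289 RPM in WT3 and WT4, 15.8 to 35.4 RPM in the deep libraries, and 20.8 and 9.03 RPM in RT2 and RT3. H2-DMb1 had 57.3 and 55.9 RPM in WT3 and WT4, 11.8 and 14.7 RPM in WT1 and WT2, 41.4 RPM in RT1, and 0 and 9.03 RPM in RT2 and RT3. WT3 and WT4 were thus highest on both scales. Wild-type means were 58.7 ± 52.8 RPKM for H2-DMa, 83.9 ± 89.0 for H2-DMb2 and 19.0 ± 16.8 for H2-DMb1 (SD, n = 4), against 10.6 ± 5.23, 8.08 ± 3.14 and 6.53 ± 7.08 RPKM in RT (SD, n = 3). RT2 and RT3 hold at most 2 reads of each of these genes, and a count of 0 for H2-DMb1 in RT2 allows a level of up to 19.1 RPKM, taking 3 reads as the limit.

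The promoters of the H2-DMb genes each hold TGATTGG and no GCAAC at that spacing, and they are shown because the 2 genes are near copies of each other:
H2-DMb1, chr17:34153075-34153154, plus strand: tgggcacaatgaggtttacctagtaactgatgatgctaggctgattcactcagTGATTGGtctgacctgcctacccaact
H2-DMb2, chr17:34145104-34145183, plus strand: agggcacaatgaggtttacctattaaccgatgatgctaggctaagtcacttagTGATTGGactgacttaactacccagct
The 2 windows have the same base at 69 of 80 positions, and the Y box ends 56 bases before the RefSeq start in H2-DMb1 and 85 in H2-DMb2. The gene spans given above are from GENCODE and begin upstream of both RefSeq starts, so these 2 windows lie inside those spans. The search was for exact letters, so a stretch that differs by a base, such as gtaac in the H2-DMb1 window, was not marked. Both promoters listed for H2-DMa lack TGATTGG, though the downstream promoter holds the shorter ATTGG. Reads from genes as similar as the H2-DMb pair can be split between them in ways that depend on how the authors counted. The division between H2-DMb1 and H2-DMb2 is therefore uncertain. H2-DMb1 took 24.9% of the pair's 417 reads in WT1 (Wilson 95% interval 21 to 29.3%), 48.1% of 316 in WT2 (42.6 to 53.6%) and 59.3% of 767 in RT1 (55.8 to 62.7%). It took 14.6% of 41 reads in WT3 (6.88 to 28.4%) and 16.2% of 37 in WT4 (7.65 to 31.1%), and RT2 and RT3 had 2 reads each. The 2 deep wild-type libraries thus differed from each other beyond counting error, and by more than WT2 differed from RT1. Intervals and limits cover counting error only.

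**Figure D1:**
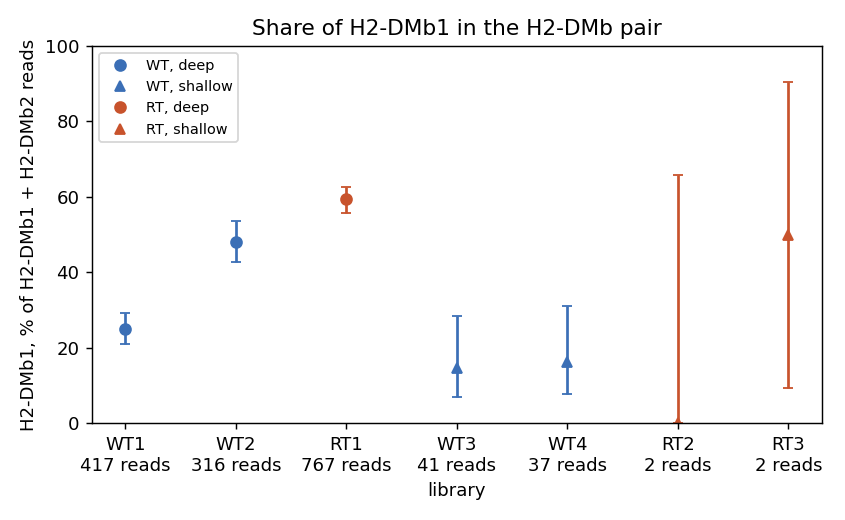
H2-DMb1 reads as a percentage of H2-DMb1 plus H2-DMb2 reads in each library, with Wilson 95% intervals for counting error and the number of reads under each name. The share is 24.9% in WT1, 48.1% in WT2 and 59.3% in RT1, is 14.6% in WT3 and 16.2% in WT4, and rests on 2 reads each in RT2 and RT3.

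Ciita, the transactivator (chr16:10480059-10528418, plus strand), had 6.98, 2.42, 22.0 and 18.1 RPKM in WT1 to WT4, 4.76 RPKM in RT1 and 0 in RT2 and RT3. The whole reads fit a gene length of 5254 bases in the deep set and 9535 in the shallow set, so Ciita RPKM values are not on 1 scale across the sets. In recovered reads Ciita had 681 and 255 in WT1 and WT2, 25 and 21 in WT3 and WT4, 545 in RT1 and 0 in RT2 and RT3. In RPM that is 77.0 and 24.6 RPM, then 239 and 196 RPM in the shallow wild-type libraries, 49.6 RPM in RT1 and limits of 31.3 and 27.1 RPM for RT2 and RT3. WT3 and WT4 were the highest, RT1 lay between WT1 and WT2, and the limits for RT2 and RT3 lie above the level measured in WT2.

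**Figure D2:**
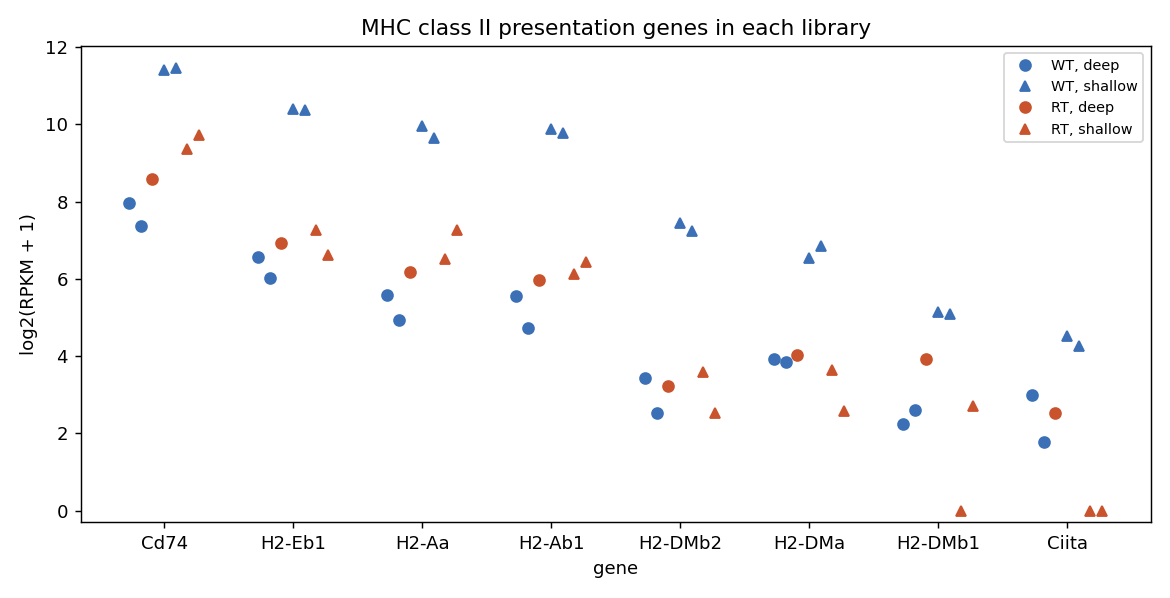
Level of each class II gene on the log2(RPKM + 1) scale in the 7 libraries, with circles for deep and triangles for shallow libraries, blue for WT and orange for RT. In all 8 genes the 2 blue triangles (WT3 and WT4) are the highest points, and the remaining 5 points lie close together for the chain genes, with RT2 and RT3 at 0 for Ciita and RT2 at 0 for H2-DMb1.

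The planned test compared 3 RT with 4 wild-type libraries with limma on log2(RPKM + 1), a scale that understates the change of low genes. It called 0 of the 8 class II genes higher and 0 lower at an adjusted p under 0.05. Over all 9605 genes tested it called 0.0416% higher and 0.0104% lower, so few calls of any gene were made. All 8 fitted log2 fold changes were below 0, with a median of -1.48 against 0.00 over all genes tested. They ran from -0.32 ± 1.15 (SE) for Cd74 (limma adjusted p = 0.958) through -0.87 ± 1.23 for H2-Aa (0.876) to -2.55 ± 0.85 for Ciita (0.401). At an unadjusted p under 0.05, 2 of the 8 genes (H2-DMa and Ciita) and 400 of all genes were lower. Without WT3 and WT4 the sign turned: the median became 0.39, with 5 genes above 0, and again 0 were called, at 0 calls over all genes in either direction (before adjustment 565 were higher and 232 lower at p under 0.05, 1 class II gene among them).

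A second fit used the recovered whole reads with limma voom and a term for the library set, over 5852 genes whose shallow-set reads summed to 10 or more. It called 1 class II gene higher, H2-DMb1, and 0 lower, where 9.95% of all genes tested were called higher and 8.42% lower. H2-DMb1 had a log2 fold change of 1.48 ± 0.37 (SE, adjusted p = 0.0285 by limma), and the other 7 lay between -0.48 ± 0.67 for H2-Eb1 and -0.03 ± 0.76 for Ciita. The deep libraries carry nearly all reads, so this value is set mainly by RT1, where H2-DMb1 had 455 reads (41.4 RPM) against 104 (11.8 RPM) in WT1 and 152 (14.7 RPM) in WT2. Without RT3 the estimate was nearly the same, 1.49 ± 0.41, but missed the threshold (limma adjusted p = 0.0622), and it turned in sign without RT1 (log2 fold change -2.86). The call was also lost when genes with fewer reads were let in (1.15, limma adjusted p = 0.232). It was kept without WT3 and WT4, at 1.65 ± 0.29 (limma adjusted p = 0.0150), where 6.08% of all genes were called higher and 3.83% lower. H2-DMb1 had 12 reads in WT3 and WT4 together and 1 in RT2 and RT3. It thus reached the read minimum only with WT3 and WT4. The same filter was used for the fit without them, so the kept call has that limit too. The division of reads between H2-DMb1 and H2-DMb2 is also uncertain.

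Within the deep set, RT1 lay above the mean of WT1 and WT2 in RPKM for 7 of the class II genes, by 3.16-fold for H2-DMb1, 1.87-fold for Cd74, 1.86-fold for H2-Aa, 1.73-fold for H2-Ab1, 1.53-fold for H2-Eb1, 1.14-fold for H2-DMb2, 1.11-fold for H2-DMa. For Ciita it lay at the mean (1.01-fold), and between WT1 and WT2 in both RPKM and RPM. None of the 8 passed the limma test of the deep set alone, where 6.51% of all genes were called higher and 3.32% lower. The nearest to the threshold were H2-DMb1 (log2 fold change 1.64 ± 0.49, limma adjusted p = 0.0535), H2-Aa (0.93 ± 0.29, 0.0622) and Cd74 (0.91 ± 0.30, 0.0808). RT1 has no replicate in this set and was assumed to vary like the 2 wild-type libraries.

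Within the shallow set the direction was the opposite. WT3 and WT4 together had 934 Cd74 reads against 242 in RT2 and RT3, a level 3.76-fold higher per recovered read (exact binomial 95% interval 3.26 to 4.35). The ratio was 7.41 for H2-Aa (5.56 to 10.1), 12.0 for H2-Ab1 (8.19 to 18.1) and 11.2 for H2-Eb1 (7.83 to 16.5). It was 13.3 for H2-DMa (4.25 to 67.2) and 21.4 for H2-DMb2 (7.03 to 107), each against 3 reads in RT2 and RT3, and 11.7 for H2-DMb1 on 12 reads against 1, with a lower bound of 1.73 and an upper one too wide to use. The interval of Cd74 did not overlap those of the 3 chain genes, but these intervals cover counting error only and not the spread between libraries. Ciita was at least 14.9-fold higher in WT3 and WT4 than in RT2 and RT3, taking 3 reads over the 2 RT libraries as the limit.

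The limma test of the shallow set alone called 7 of the 8 genes lower in RT and 0 higher, where 4.68% of all genes were called lower and 3.35% higher. H2-Ab1 had a log2 fold change of -3.54 ± 0.33 (limma adjusted p = 3.17e-16), H2-Eb1 of -3.48 ± 0.32 (1.14e-16), H2-Aa of -2.91 ± 0.29 (3.94e-15) and Cd74 of -1.92 ± 0.19 (6.3e-15). These 4 genes reach the read minimum in RT2 and RT3 alone. H2-DMa, H2-DMb2 and Ciita, the other 3 called, and H2-DMb1, which was not called (-2.87 ± 1.39, limma adjusted p = 0.225), reach it only with the reads of WT3 and WT4, where they are high, so the filter depends on the difference tested and their calls count for nothing further. WT3 and WT4 lay close to each other over all genes (chi-square per degree of freedom 1.14 over 2343 genes, against 2.98 for RT2 and RT3), and they held 1128 and 1109 class II reads. If they were not separate preparations, the spread within wild type and these p-values would be too small. When WT1 and WT2 were fitted beside the 4 shallow libraries with a library set term and RT1 left out, 0 of the 8 and 0 of all genes passed. In that fit the genotype contrast comes from the shallow set alone. Its class II estimates (median -3.45) were therefore bound to be near those above and are no further check on them.

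The difference between the sets was tested as an interaction of genotype and library set. The RT effect was lower in the shallow than in the deep set for all 8 genes, by a log2 difference of -2.84 for Cd74, -3.83 for H2-Aa, -4.10 for H2-Eb1 and -4.39 for H2-Ab1, and by -3.54 to -5.72 for the other 4. None passed (limma adjusted p = 0.0540 for H2-Eb1 and 0.0550 for H2-Aa and Cd74 at the nearest), where 0.564% of all genes tested passed in that direction. All 8 had an unadjusted p under 0.05, as had 348 of all genes, with the same limit for the 4 genes that the filter let in through WT3 and WT4.

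**Figure D3:**
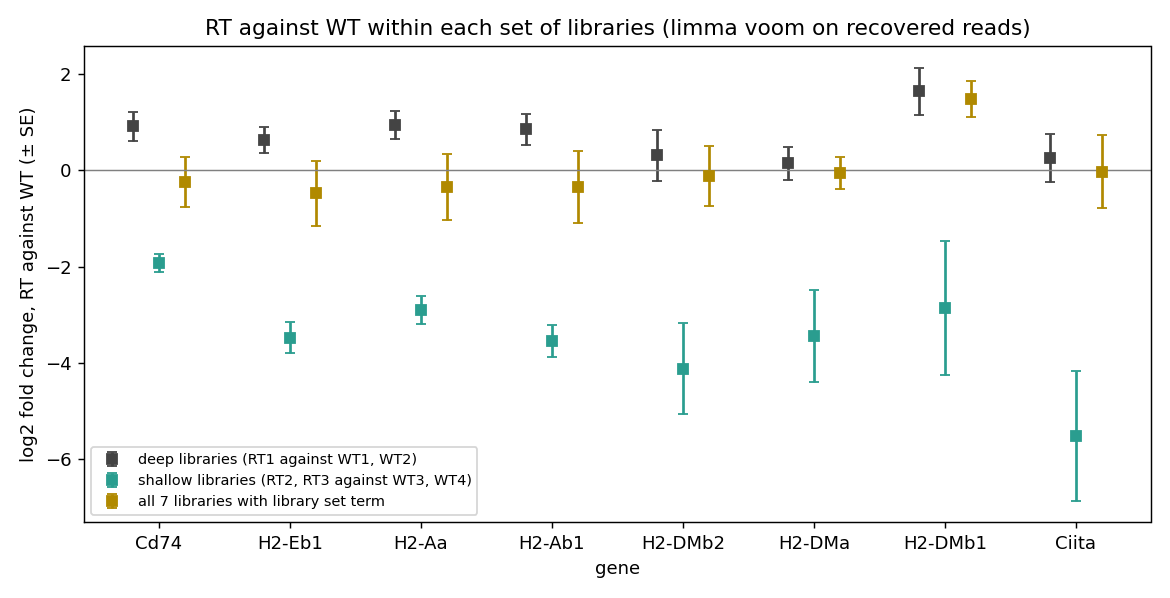
Log2 fold change of RT against WT for each class II gene from limma voom on recovered reads, with bars of 1 SE, in the deep libraries (black), the shallow libraries (green) and all 7 with a library set term (gold). The black squares lie above 0 for all 8 genes and the green ones below 0 for all 8, and H2-DMb1 alone has a gold square above 0.

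The order of the genes per length was similar in every library. Cd74 ranked first in all 7 and H2-Eb1 second in all but RT3, where H2-Aa was second. As a percentage of the Cd74 RPKM, H2-Aa stood at 17.9 to 18.8% in the deep set, 28.6 to 36.5% in WT3 and WT4 and 13.8 to 18.3% in RT2 and RT3. H2-Ab1 stood at 15.5 to 18.3%, 31.0 to 34.8% and 10.2 to 10.5% in the same order. H2-Eb1 stood at 31.3 to 39.1%, 47.3 to 49.4% and 11.6 to 23.1%. The chain genes were thus highest relative to the invariant chain in WT3 and WT4. Cd74 made up 40.2% and 43.4% of the class II reads in WT3 and WT4, 49.7 to 54.1% in the deep libraries and 64.9% and 67.6% in RT2 and RT3.

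The summed level of the 8 genes was 1484 and 878 RPM in WT1 and WT2, 10780 and 10331 RPM in WT3 and WT4, 1996 RPM in RT1, and 1574 and 1924 RPM in RT2 and RT3. Class II reads were thus 1.08% and 1.03% of recovered reads in WT3 and WT4 and 0.0878 to 0.200% in the other 5 libraries. In bulk libraries fewer cells of a type and less RNA per cell cannot be told apart. Markers of B cells, which express class II genes at high level, were highest in the same libraries. The 15 B cell markers other than Ighm summed to 440 and 320 RPM in WT1 and WT2, 2169 and 2450 RPM in WT3 and WT4, and 623, 302 and 407 RPM in RT1 to RT3. All 16 B cell markers had reads in the 5 deep or wild-type libraries, 6 in RT2 and 11 in RT3. In RT2, Ms4a1 was at 0, which allows up to 31.3 RPM, taking 3 reads as the limit. WT1 and WT2 had 30.5 and 26.7 RPM of Ms4a1, so RT2 cannot be told from them for this gene. WT3 and WT4 had 153 and 205 RPM.

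The class II sum was 0.989, 0.818, 0.736 and 0.720 times the sum of all 16 B cell markers in WT1 to WT4 and 0.326, 0.459 and 0.455 times in RT1 to RT3, so every wild-type ratio lay above every RT ratio. Ighm made up most of that sum. Against the B cell markers without Ighm, a list chosen after seeing the data, the ratio was 3.37, 2.75, 4.97 and 4.22 in WT1 to WT4 and 3.20, 5.21 and 4.73 in RT1 to RT3, and the genotypes overlapped. Ighm, the heavy chain of IgM, did not follow the same order: it had 1061 and 753 RPM in WT1 and WT2 and 12472 and 11905 RPM in WT3 and WT4, but 5494, 3127 and 3821 RPM in RT1 to RT3, above WT1 and WT2 in every RT library. In the shallow set 9 of 15 B cell markers tested were lower in RT, but 12 of the 15 reached the read minimum only with WT3 and WT4, and the other 3, among them Ighm (-1.81), were all lower. In the deep set 4 were higher, among them Ighm (2.62). In the read fit over all 7 libraries 1 was called, Fcer2a, the low-affinity IgE receptor, which was lower (-1.81, limma adjusted p = 0.0219). Fcer2a had 18 reads in WT3 and WT4 together and 0 in RT2 and RT3. It was thus among the markers that reached the read minimum only with WT3 and WT4, and its call has the same limit.

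Dendritic cell markers summed to 516 and 522 RPM in WT3 and WT4 and to 77.8 to 111 RPM in the other 5 libraries, the range there including all RT libraries. In RT2 the whole sum was Bst2, the 1 gene of the list with reads there. Bst2 did not follow the order of the sum: it had 104 and 45.2 RPM in RT2 and RT3 against 66.9 and 55.9 RPM in WT3 and WT4. It had 22.9, 24.8 and 26.8 RPM in WT1, WT2 and RT1. Plasma cell markers, led by Igkc and Jchain, summed to 6489 and 6372 RPM in WT3 and WT4, 184 and 279 RPM in WT2 and WT1, and 1042 to 2167 RPM in RT. Haemoglobin and other red cell genes summed to 1768 and 1742 RPM in WT3 and WT4 and elsewhere to 111 to 406 RPM. Macrophage and monocyte markers were ordered otherwise: they were highest in RT1 at 3773 RPM, followed by WT3 and WT4 at 1539 and 1360 RPM, WT1 and WT2 at 975 and 727 RPM, and RT2 and RT3 at 490 and 669 RPM. C1qa, C1qb and C1qc, chains of the complement component C1q, were higher in the read fit by log2 fold changes of 2.44 to 2.53. C1qb, for example, had 608 RPM in RT1 against 94.9 and 88.0 RPM in WT1 and WT2, but 104 and 99.4 RPM in RT2 and RT3 against 191 and 121 RPM in WT3 and WT4. In the shallow set the estimates of C1qa, C1qb and C1qc were -0.80, -0.56 and -0.53, not called. Those of all 7 macrophage markers tested were below 0, with 3 called lower. Of the 7, 2 reached the read minimum only with the reads of WT3 and WT4, among them 1 of the 3 called. T cell markers lay between 3890 and 4950 RPM in WT3, WT4 and the deep libraries, and reached 8401 and 7417 RPM in RT2 and RT3. The part of these cell types in the class II values was not tested.

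**Figure D4:**
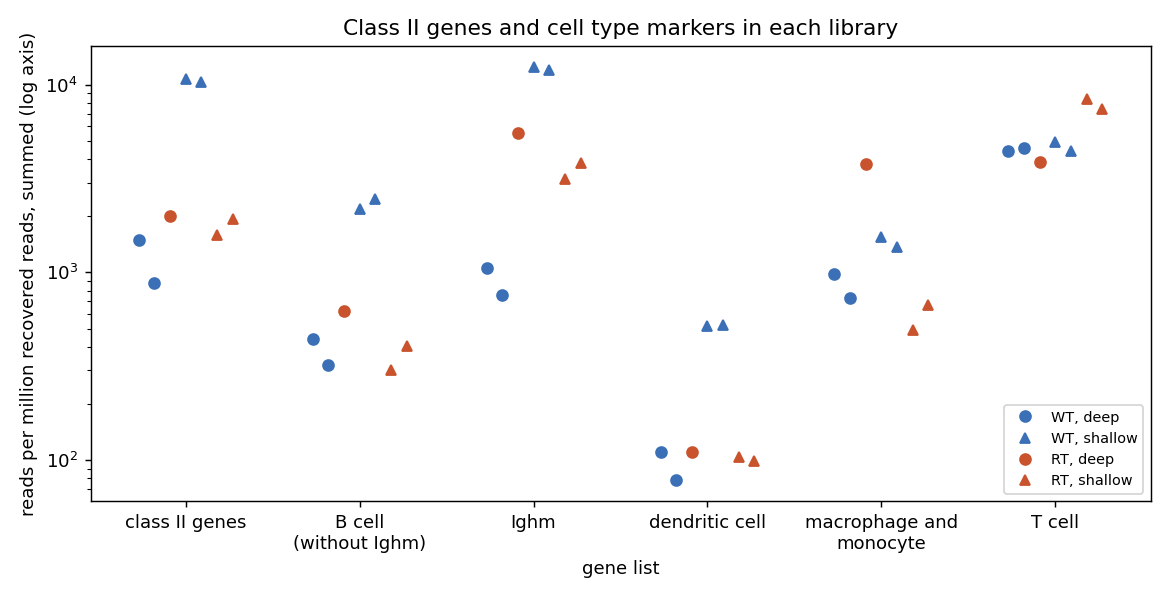
Summed level, in reads per 1000000 recovered reads on a log axis, of the 8 class II genes and of marker lists in each library (circles deep, triangles shallow, blue WT, orange RT). WT3 and WT4 are highest for the class II genes, the B cell list, Ighm and the dendritic cell list, RT1 is highest for the macrophage and monocyte list, and RT2 and RT3 for the T cell list.

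The genes whose pattern over the 7 libraries was nearest to the mean class II pattern were sought among the same 5852 genes, by the root mean square difference of centred log2(RPM + 10). The 10 nearest were 7 immunoglobulin segments (Ighv1-82, Igkv8-24, Ighv2-9-1, Igkv6-23, Ighv5-16, Igkv1-135 and Ighv1-75), the aspartic protease Napsa, the surface glycoprotein Cd24a and the B cell receptor adaptor Blnk. Their differences ran from 0.17 to 0.31, against a median of 1.42 over all genes ranked, with 7 libraries behind each value. All 10 reached the read minimum only with the reads of WT3 and WT4, so low genes could enter the ranking only by being high there, and the list is a description of these libraries. Blnk had 6.67 and 6.37 RPM in WT1 and WT2, 95.6 and 74.5 RPM in WT3 and WT4, 23.4 RPM in RT1 and 0 reads in RT2 and RT3. Among the 8 class II genes, H2-Eb1 (0.25) lay nearest to their common pattern and Ciita (0.83) and H2-DMb1 (0.70) farthest.

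The minor class II genes were also highest in WT3 and WT4. H2-Ob, a chain of the H2-O heterodimer that restrains H2-DM, stood at 8.10 and 5.41 RPKM in WT1 and WT2, 74.7 and 73.0 in WT3 and WT4, and 6.82, 9.0 and 13.0 RPKM in RT1 to RT3. In RPM it had 268 and 261 in WT3 and WT4 and 31.3 to 53.6 in the other 5 libraries. H2-Oa, its partner, stood at 109 and 37.5 RPKM in WT3 and WT4 and at 0 to 7.20 RPKM elsewhere. Of the 3 genes H2-Oa, H2-Ob and H2-Eb2, 0 were called in the planned test, and of the first 2, the ones tested in reads, 0 were called over all 7 libraries. Both reached the read minimum only with the reads of WT3 and WT4. The promoters of all 3 hold the GCAAC and TGATTGG pair.

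The factors that recruit Ciita were ordered otherwise. The 7 promoter factors Rfx5, Rfxap, Rfxank, Nfya, Nfyb, Nfyc and Creb1 summed to 459 and 494 RPM in WT2 and WT1, 298 and 334 RPM in WT4 and WT3, and 190 to 414 RPM in RT. Of the 6 tested in reads 1 was called, Nfya, a subunit of the Y box factor NF-Y, which was lower (-0.66 ± 0.15, limma adjusted p = 0.0196). Nfya had 13 reads in WT3 and WT4 together and 5 in RT2 and RT3, so it reached the read minimum only with WT3 and WT4. The inducers and repressors of Ciita, among them Irf1, Jak1 and Prdm1, summed to 2731 to 3243 RPM in the 7 libraries, and 0 of the 8 tested were called in the read fit.

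Genes that act on class II molecules outside their synthesis gave several calls in the read fit, none of which the planned test made. Of 8 endosomal genes that prepare peptides or cut Cd74, cathepsins, Lgmn and the reductase Ifi30, 6 were higher and 0 lower, among them Lgmn (2.24 ± 0.36, limma adjusted p = 0.00519), Ctsb (1.46 ± 0.30, 0.0134), Ctsd (1.01 ± 0.21, 0.0150) and Ctss, the cathepsin that trims Cd74 (1.08 ± 0.25, 0.0214). Ctss had 190 and 178 RPM in WT1 and WT2, 440 and 475 RPM in WT3 and WT4, 496 RPM in RT1, and 552 and 388 RPM in RT2 and RT3. In the deep set 6 of the 8 were higher, and in the shallow set 0 were higher and 2 lower. The 2 lower calls were of genes that reached the read minimum only with the reads of WT3 and WT4, where they are high, so they count for nothing further. Macrophage markers, too, were highest in RT1, and their part in the higher calls was not tested. March1, a ubiquitin ligase that removes class II from the surface, was higher in the read fit (1.68 ± 0.36, limma adjusted p = 0.0152). It had 652 reads (59.4 RPM) in RT1 against 157 and 163 (17.7 and 15.7 RPM) in WT1 and WT2, but 0 in RT2 and RT3 against 5 each (47.8 and 46.6 RPM) in WT3 and WT4. The call rests on RT1, and the estimate in the shallow set had the other sign (-3.42, limma adjusted p = 0.125). March1 reached the read minimum only with the reads of WT3 and WT4, so the shallow estimate depends on the filter and counts for nothing further. March8, its relative, was not tested in reads.

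Lag3, an inhibitory receptor on T cells that binds class II, was higher in RT where the class II genes were lower, in the shallow set. It had 22.3, 6.04, 39.9 and 74.1 RPKM in WT1 to WT4 against 89.9, 399 and 366 RPKM in RT1 to RT3, with every RT library above every wild-type one. The same held in RPM, with 98.9, 24.6, 95.6 and 177 RPM against 376, 928 and 849 RPM. It was higher in the read fit (2.92 ± 0.50, limma adjusted p = 0.00690), in the deep set and in the shallow set, and it did not pass the planned test (0.292). Cd4, the coreceptor for class II, was higher in the shallow set (0.76, limma adjusted p = 0.0101) and did not pass over all libraries (0.22, 0.424).

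Class I presentation genes, the sister pathway, were highest in RT2 and RT3. The 12 genes summed to 9699 and 10017 RPM in WT1 and WT2, 12730 and 12362 RPM in WT3 and WT4, 9215 RPM in RT1 and 20064 and 15936 RPM in RT2 and RT3. In the shallow set 3 were higher in RT, H2-K1 (0.50), H2-D1 (0.56) and B2m (0.55), and 0 were lower, while Cd74, H2-Aa, H2-Ab1 and H2-Eb1 were lower there. In the read fit over all libraries Calr, a chaperone of class I folding, was the 1 gene called (0.48 ± 0.11, limma adjusted p = 0.0198).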

How the data were processed

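CD4+ splenocytes were sorted by flow cytometry and 150 ng of total RNA went into each library of an Illumina kit that does not mark strand, the amount per the labels' protocols. The authors deposited 1 table of RPKM values in 7 columns, 1 per library. Per the submitters' processing notes the build was mm10. The aligner, the counter and the gene models are not given in the sources used. Gene positions come from GENCODE M21 by symbol (19409 of 19589 found).

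The planned test used limma 3.58.1 in R 4.3.3 on log2(RPKM + 1), with a pseudocount of 1, trended prior variance and genotype as the only term, for genes reaching 1 RPKM in 3 or more of the 7 libraries. P-values are two-sided and Benjamini-Hochberg adjusted over all genes tested, with a threshold of 0.05.

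Whole reads were recovered from the steps between RPKM values. With M21 exon lengths, 78.9% to 83.9% of values under 100 reads came out whole within 0.01 reads. Among the 13859 genes above 0, 12951 came out whole throughout with 1 length, 841 (Ciita among them) needed a length per library set, and 67 were rounded. Limma voom on these reads had terms for genotype and library set over 5852 genes whose shallow-set reads summed to 10 or more. The sets were also fitted apart. A count of 0 allows up to 0.273 to 0.339 RPM in deep and 27.1 to 31.3 RPM in shallow libraries, taking 3 reads as the limit. The scripts were tested on simulated data.

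The members and lists were chosen with earlier results of these data known. Named genes were all 8 members, up to 4 called genes of each pathway list (the 2 with the highest mean RPKM where none was called), leading genes of each marker list, and the 10 nearest in pattern. Single values of 2 listed genes are not reported here. Marker lists covered B, plasma, dendritic, NK, CD8 T, T and red cells, neutrophils, and macrophages and monocytes. Alternatives were another pseudocount, no filter on low values, rescaled or quantile normalized values, a library set term, a replicate block, leaving out each library, and averaging WT3 and WT4. The interaction, the fits without WT3 and WT4 and the B cell list without Ighm were chosen after seeing the data.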

Additional observations from a re-analysis of the deposited data

Results flagged for a closer look

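The summed level of the NK cell list stood at 61.2, 62.9 and 65.2 RPM in WT1, WT2 and WT4 and at 19.1 RPM in WT3. The gap between WT3 and the nearest of the other wild-type libraries was 0.912 of the group's whole range, above Dixon's 95% critical value for 4 samples. This was the 1 group above the value among 25 groups of wild-type values examined, and chance puts about 5% of groups there. In WT3, 2 of the 6 NK cell genes had reads, and Prf1, the perforin gene, had 1 read. The 8 class II genes and their sum gave no such gap, but the ratio looks for 1 library apart from the rest. It could not flag them, because WT3 and WT4 were high together, so nothing is drawn from it for these genes.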

How the results depend on the processing

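No setting of the RPKM test called any of the 8 class II genes. In that test, 0 genes in all were called higher and 0 lower with a pseudocount of 0.1, without the filter on low values, with a replicate block, with WT3 and WT4 averaged, and without WT3 and WT4, and 0 were lower with a pseudocount of 5. Calls rose to 13 higher and 6 lower after rescaling to the same sum, 20 and 7 after quantile normalization and 21 and 5 with a library set term. The sign of Cd74 turned, at 0.31 with the replicate block and 0.30 with WT3 and WT4 averaged. The replicate numbers do not pair the samples: deviations from the group means correlated at 0.43 for number 1, -0.18 for number 2 and 0.18 for number 3. The block leaves WT4 without a partner, so WT4 adds nothing to that fit. The cause of these changes was not tested.

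On recovered reads the counts were 582 higher and 493 lower, with 1 class II gene higher, a class II median of -0.18 and H2-DMb1 at 1.48. Without the filter on reads they were 677 and 402, the median was -0.09, and H2-Aa (0.06), Cd74 (0.34) and H2-DMb1 (1.15, limma adjusted p = 0.232) had the other sign than in the RPKM test. The deep set alone gave 381 higher and 194 lower and a class II median of 0.74, with H2-Aa at 0.93, H2-Ab1 0.85, H2-Eb1 0.63, H2-DMa 0.14, H2-DMb1 1.64, H2-DMb2 0.31, Cd74 0.91 and Ciita 0.26. The shallow set alone gave 196 higher and 274 lower, 7 class II genes lower (3 of them let in by the filter only through WT3 and WT4) and a median of -3.46. Without WT3 and WT4 the RPKM test gave a class II median of 0.39, with H2-Aa at 1.40, H2-Ab1 1.05, H2-Eb1 0.64, H2-DMb2 0.13 and Cd74 1.56. The read fit without them gave 356 higher and 224 lower, 1 class II gene higher and a median of 0.73, with H2-Aa at 0.92, H2-Ab1 0.84, H2-Eb1 0.63, H2-DMa 0.14, H2-DMb1 1.65, H2-DMb2 0.29, Cd74 0.91 and Ciita 0.21. The class II gene called higher, here and over all libraries, was H2-DMb1, let in by the filter only through WT3 and WT4.

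Leaving out each library in turn, in both fits, moved the counts over all genes between 0 and 804 higher and between 0 and 711 lower, the 0 in the read fit coming without RT1. In the RPKM test they ran from 0 to 16 higher and 0 to 5 lower. Class II genes called higher ran from 0 to 1 and their median from -3.45 to 0.08, or from -2.20 to -0.92 in the RPKM test. By gene the ranges were -2.91 to 0.09 for H2-Aa, -3.54 to 0.03 for H2-Ab1, -3.48 to -0.07 for H2-Eb1, -3.41 to 0.04 for H2-DMa, -2.86 to 1.59 for H2-DMb1, -4.09 to 0.34 for H2-DMb2, -1.92 to 0.31 for Cd74 and -5.51 to 0.73 for Ciita. The lowest values all came without RT1, which leaves the genotype contrast to the shallow set.

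Depth limits the low genes: RT2 and RT3 hold 0 to 2 reads of each H2-DM gene and 0 of Ciita, so their levels there are known only as upper limits or with wide intervals.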

Other observations

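The remaining marker lists were low in every library. Neutrophil genes summed to 2.41 and 18.3 RPM in WT2 and WT1, 18.6 and 28.7 RPM in WT4 and WT3, 88.7 RPM in RT1, and 9.03 and 10.4 RPM in RT3 and RT2, the shallow values resting on 1 to 3 genes with reads. The CD8 T cell genes Cd8a and Cd8b1 summed to 9.56 to 27.9 RPM in wild type and to 0 to 9.03 RPM in RT. Within the T cell list, Thy1 was lower in the read fit (-2.61, limma adjusted p = 0.00748), at 47.9 RPM in RT1 against 419 and 527 RPM in WT1 and WT2. In the shallow set Thy1 had 490 and 298 RPM in RT2 and RT3 against 449 and 540 RPM in WT3 and WT4 and was not called (-0.38, limma adjusted p = 0.512). Cd5 was lower in the read fit (-0.96, limma adjusted p = 0.00889) and not called in the shallow set (-0.62, limma adjusted p = 0.225). Zap70, a kinase of the T cell receptor, was higher in the read fit (1.09, limma adjusted p = 0.00529), in the deep set (0.98) and in the shallow set (1.43).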
